A study of Mus musculus with 18 samples.

Results

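The genes that encode the proteasome and its immune form were followed in mouse liver RNA-seq. A gene was a member if its symbol was Psma, Psmb, Psmc, Psmd, Psme, Psmf or Psmg followed by a number alone, which gave 48 of the 55487 genes counted. The male C57BL/6J mice, bought at 7 weeks of age, had received adeno-associated virus (AAV8) carrying GFP or human LIPA (the gene for lysosomal acid lipase, LAL) 1 week before their diet began, under the TBG promoter, which is active in hepatocytes. CON-GFP mice ate a purified control diet for 16 weeks, and FPC-GFP and FPC-LIPA mice ate a diet rich in fructose, palmitate and cholesterol (FPC), with fructose and glucose in the drinking water. Each group held 6 mice with 1 liver library each, taken after a 4 h fast. All 18 mice thus carried a vector, which limits the groups as a model of diet alone. FPC-GFP against CON-GFP gives the response to diet, and FPC-LIPA against FPC-GFP the response to LAL overexpression on that diet. The human LIPA transcript itself was not analysed here, so these counts hold no check of the transgene.

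The proteasome is the barrel-shaped protease that degrades proteins tagged with ubiquitin. Its 20S core has outer rings of alpha subunits (Psma genes), which form the gate, and inner rings of beta subunits (Psmb genes), of which Psmb5, Psmb6 and Psmb7 encode the catalytic ones. The 19S cap binds, unfolds and feeds in the substrates through a ring of ATPases (Psmc genes) and through non-ATPase subunits (Psmd genes). In leukocytes, and in other cells under interferon gamma, Psmb8, Psmb9 and Psmb10 encode catalytic subunits that take the places of those of Psmb5, Psmb6 and Psmb7, which alters the peptides made for MHC class I. Psme1 and Psme2 encode the alpha and beta subunits of PA28, a cap also induced by interferon gamma, and Psme3 encodes its nuclear relative PA28 gamma. Psme4 encodes the activator PA200, Psmf1 the inhibitor PI31, and the Psmg genes chaperones of core assembly.

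Promoter stretches of Psmb9, Psmb5 and Psmb6 are shown, 1 immune and 2 constitutive catalytic genes. Psmb9 and Tap1, which encodes a subunit of the peptide transporter of MHC class I, start back to back. The stretch between their RefSeq starts (GRCm38.p6, chr17:34187331-34187555, plus strand, no capitals used) is the following.
Psmb9 and Tap1: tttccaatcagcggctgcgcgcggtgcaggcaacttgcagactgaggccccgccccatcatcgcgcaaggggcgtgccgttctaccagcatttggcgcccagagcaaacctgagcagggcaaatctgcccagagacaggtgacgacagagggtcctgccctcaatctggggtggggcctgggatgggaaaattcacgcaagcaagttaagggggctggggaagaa

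Within 250 bases before to 50 bases after RefSeq starts, letters of known elements were sought on both strands, among them the core of ISRE, the interferon-stimulated response element (GAAANNGAA) and the core of ARE, the antioxidant response element (TGACNNNGC). The ARE letters lay before Psmb5 (chr14:54618004-54618072, minus strand) and Psmb6 (chr11:70525318-70525356, plus strand). Capitals mark these letters.
Psmb5: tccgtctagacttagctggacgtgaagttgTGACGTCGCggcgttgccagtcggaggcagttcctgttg
Psmb6: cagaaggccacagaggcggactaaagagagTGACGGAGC
Of the 40 members with a RefSeq promoter, 7 held the ISRE core (among them Psme1, Psmc2 and Psmg4) and 6 the ARE core (among them Psmb5 and Psmb6). Over all 32851 promoters the shares were 8.56% and 12.4%. These shares count promoters, whereas the members are counted as genes, with 43 promoters among the 40. These are matches of letters and show no binding.

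Total counts per library were between 16632146 and 37739301. Levels are counts per M (CPM) with TMM factors of all 18 livers, given per liver or as mean ± SD (n = 6), and errors of log2 fold changes are standard errors (SE). A gene passed when its adjusted p was under 0.05 in edgeR's quasi-likelihood test over all genes, and was differentially expressed (DE) when its fold change was also at least 2. Of the members 47 were tested. Psmb11, the thymus form of the catalytic subunit, had 0 counts in all 18 libraries, which allows up to 0.180 CPM in the shallowest. Psma8, the testis form of an alpha subunit, had 9 to 74 counts per library and a mean of 0.767 ± 0.466 CPM in CON-GFP. The floor is 3 counts per library and covers counting error only.

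One feature of the libraries bears on every result for FPC-LIPA. Genes of cytosolic ribosomal proteins took 1.71% to 2.49% of counts in CON-GFP and 1.41% to 1.76% in FPC-GFP. They took 2.12% to 2.89% in FPC-LIPA 31, 33 and 34, but 6.36%, 8.00% and 8.05% in livers 36, 37 and 39 of that group. Calls of the LIPA comparison are therefore also given without these 3 livers, a choice made after seeing the data. The hepatocyte gene Alb was high in every liver, as the tissue label has it. In CPM, 20 leukocyte markers summed to 134 to 265 (CON-GFP), 335 to 651 (FPC-GFP) and 709 to 1330 (FPC-LIPA), so the groups did not overlap. In such bulk tissue, fewer cells of a type and less RNA per cell cannot be told apart.

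The catalytic genes of the immunoproteasome did not pass in either comparison (edgeR). Psmb8 (ENSMUSG00000024338, GRCm38 chromosome 17, 34197721 to 34201454) lay between 23.6 and 41.1 CPM in CON-GFP (median 28.8), between 20.0 and 34.3 CPM in FPC-GFP (median 30.1) and between 22.1 and 32.2 CPM in FPC-LIPA (median 28.4). The 3 groups overlapped almost fully. Its log2 fold change was -0.14 (SE 0.17, edgeR adjusted p = 0.579) with the diet and -0.01 (SE 0.18, adjusted p = 0.968) with LAL overexpression. Psmb9 (ENSMUSG00000096727, chromosome 17, 34181987 to 34187764) ranged from 11.5 to 23.4 CPM in CON-GFP. Its range was 12.7 to 22.9 CPM in FPC-GFP and 11.4 to 28.4 CPM in FPC-LIPA. The estimates were 0.13 (SE 0.19, adjusted p = 0.634) with the diet and -0.05 (SE 0.23, adjusted p = 0.891) with LAL overexpression (edgeR). Psmb10 (ENSMUSG00000031897, chromosome 8, 105935735 to 105938444) ranged from 19.4 to 34.3 CPM, from 23.7 to 36.4 CPM and from 19.6 to 43.2 CPM in the same order of groups. Its estimates were 0.10 (SE 0.14, adjusted p = 0.615) and 0.03 (SE 0.19, adjusted p = 0.912) by edgeR. FPC-LIPA 39 was the highest liver of its group for all 3 genes, and FPC-LIPA 37 the lowest for Psmb8 and Psmb10.

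The intervals set limits on what could have been missed. With LAL overexpression the 95% interval of the log2 fold change was -0.39 to 0.37 for Psmb8, -0.54 to 0.45 for Psmb9 and -0.37 to 0.44 for Psmb10, which leaves out a doubling of any of them. With the diet it was -0.49 to 0.22, -0.27 to 0.54 and -0.20 to 0.41. None of the 3 had an unadjusted p under 0.05 in either comparison, and DESeq2's Wald test called 0 of them. Over the same livers Ptprc, the gene of the pan-leukocyte antigen CD45, was 8.87 ± 2.37 CPM in FPC-GFP and 28.2 ± 23.9 CPM in FPC-LIPA. It rose by 1.67 on the log2 scale (SE 0.38, edgeR adjusted p = 0.0159) and, without FPC-LIPA 36, 37 and 39, by 1.14 (SE 0.21, edgeR adjusted p = 0.0325). The highest of its values, 76.6 CPM, was in FPC-LIPA 37, the liver with the lowest Psmb8 and Psmb10 of the group.

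**Figure D1:**
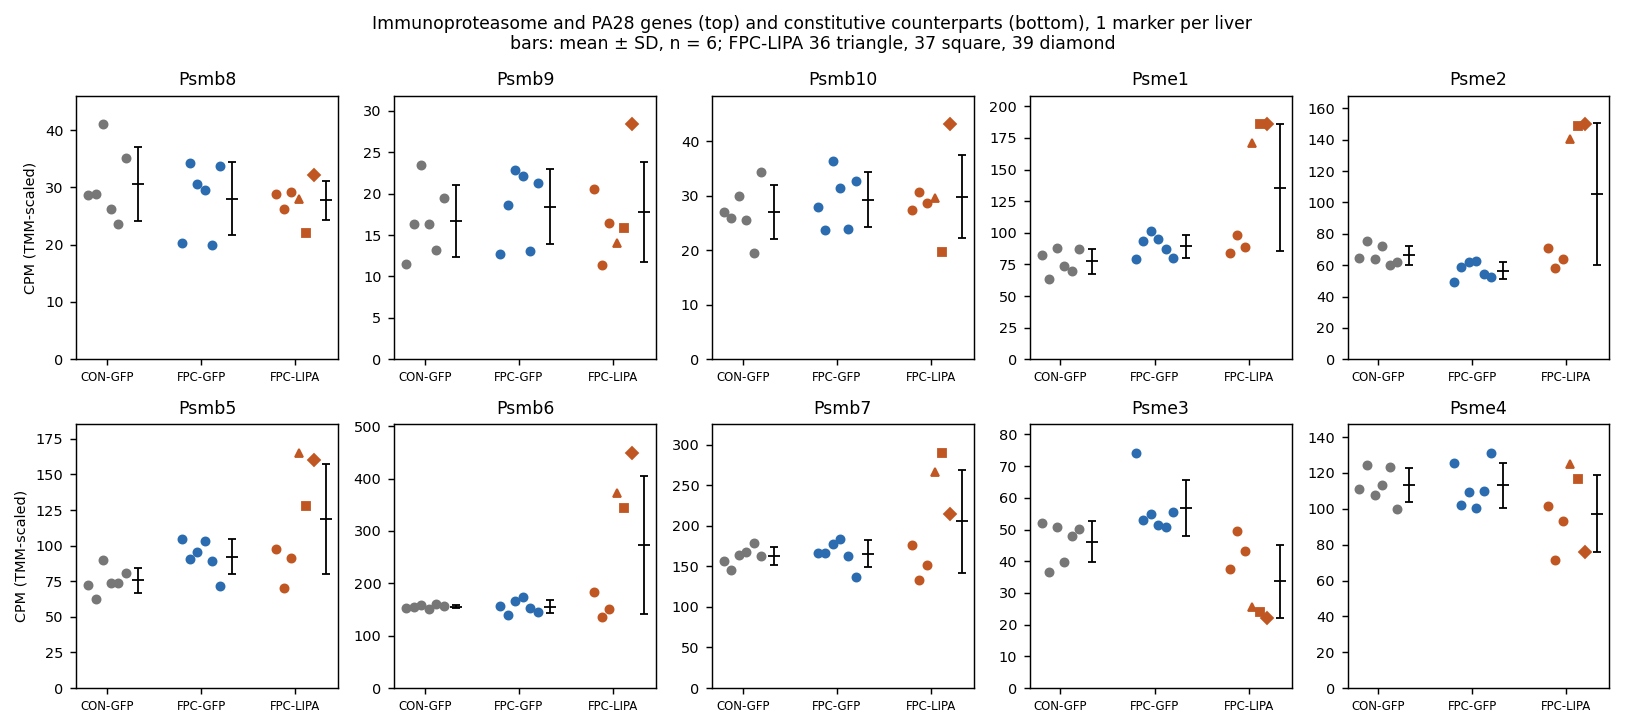
Level of 10 genes in each liver (y axis, TMM-scaled CPM, from 0) by group (x axis); bars are mean ± SD of 6 livers, and FPC-LIPA 36, 37 and 39 have markers of their own. Psmb8, Psmb9 and Psmb10 overlapped across the groups, while Psme1 and Psme2 were at 140.3 to 186 CPM in the marked livers and Psme3 at 22.0 to 25.6 CPM.

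The constitutive catalytic genes stood at higher levels. Per kb of transcript, the mean level in FPC-GFP was 17.2 CPM for Psmb8, 13.6 for Psmb9 and 22.4 for Psmb10, against 103 for Psmb5, 195 for Psmb6 and 143 for Psmb7. The immune forms thus made up 8.20% to 13.0% of catalytic transcripts per length in CON-GFP and 8.56% to 13.9% in FPC-GFP. In FPC-LIPA the share was 9.89%, 11.7% and 10.9% in livers 31, 33 and 34, and 5.39%, 4.66% and 7.37% in livers 36, 37 and 39. The low shares went with a higher denominator, since the summed constitutive catalytic level was 762 to 825 CPM in these 3 livers and 339 to 460 CPM in the other FPC-fed livers.

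By edgeR's quasi-likelihood test with TMM scaling and filterByExpr none of the 3 constitutive catalytic genes passed either. DESeq2's Wald test and edgeR's exact test called Psmb6 higher with LAL overexpression. The quasi-likelihood test called it too with DESeq2 size factors, upper-quartile factors or a filter of at least 1 CPM in 6 libraries. With library size alone it did not. Psmb5, the gene of the chymotrypsin-like site, was 75.6 ± 9.03 CPM in CON-GFP and, in FPC-GFP, 92.4 ± 12.1 CPM (log2 fold change 0.28, SE 0.11, edgeR adjusted p = 0.0861). Psmb6, the gene of the caspase-like site, was 156 ± 3.58 CPM in CON-GFP and, in FPC-GFP, 156 ± 12.3 CPM. In FPC-LIPA it was 184, 136 and 152 CPM in livers 31, 33 and 34 and 373, 345 and 449 CPM in livers 36, 37 and 39. Its log2 fold change of 0.82 (SE 0.28) with LAL overexpression had an adjusted p of 0.0505 (edgeR quasi-likelihood test), just over the threshold. Psmb7, the gene of the trypsin-like site, was 163 ± 11.2 CPM in CON-GFP, 166 ± 16.2 CPM in FPC-GFP and 205 ± 63.1 CPM in FPC-LIPA. Its estimates were 0.02 (SE 0.10, adjusted p = 0.913) with the diet and 0.31 (SE 0.21, adjusted p = 0.262) with LAL overexpression (edgeR).

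The PA28 genes moved apart from each other in FPC-LIPA. Psme1 (ENSMUSG00000022216, chromosome 14, 55578123 to 55581529) was 63.8 to 88.0 CPM in CON-GFP and, in FPC-GFP, 78.9 to 102 CPM. In FPC-LIPA it was 83.8, 98.0 and 88.5 CPM in livers 31, 33 and 34 and 171, 186 and 186 CPM in livers 36, 37 and 39. The first 3 livers lay within the FPC-GFP range and the other 3 above it. Its log2 fold change was 0.60 (SE 0.23, edgeR adjusted p = 0.0684), which did not pass.

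Psme2 (ENSMUSG00000079197, chromosome 14, 55587441 to 55591113) was 59.99 to 75.6 CPM in CON-GFP and, in FPC-GFP, 49.3 to 62.9 CPM. It was 70.8, 58.2 and 63.98 CPM in FPC-LIPA 31, 33 and 34 and 140.3, 149 and 150.1 CPM in FPC-LIPA 36, 37 and 39. Psme2 rose with LAL overexpression (log2 fold change 0.90, SE 0.26, edgeR adjusted p = 0.0281). It was the only one of the 5 immunoproteasome and PA28 alpha and beta genes to pass in either comparison by this test. DESeq2's Wald test called Psme1 as well. Its copy Psme2b held 15.8% to 24.4% of the counts of the pair in each library, and how reads that match both were counted is not stated, so the values of Psme2 are uncertain to that extent.

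Psme3 (ENSMUSG00000078652, chromosome 11, 101316213 to 101323537) fell. It was 36.5 to 52.1 CPM in CON-GFP. In the FPC-GFP livers it was 50.9 to 74.3 CPM and in the FPC-LIPA livers 22.0 to 49.5 CPM. Every FPC-LIPA liver was thus below every FPC-GFP liver, and the log2 fold change was -0.75 (SE 0.22, edgeR adjusted p = 0.0293). By edgeR's quasi-likelihood test Psme3 was the only member to fall in this comparison, against 6.87% of all genes tested. DESeq2's Wald test called Psmd1 lower as well, and all 18 libraries in one fit called Psmd1 and Psmf1 lower as well. Psme3 was not called with library size as the scaling, within sample sheet numbers 55 to 68 or without FPC-LIPA 36, 37 and 39 together. Nor was it called with any 1 of FPC-GFP 11, 12, 13 or 20 or of FPC-LIPA 36, 37 or 39 left out. Psme4 was 113 ± 9.41 CPM in CON-GFP, 113 ± 12.6 CPM in FPC-GFP and 97.1 ± 21.5 CPM in FPC-LIPA and did not pass with the diet (-0.01, SE 0.10, edgeR adjusted p = 0.945) or with LAL overexpression (-0.22, SE 0.18, adjusted p = 0.367). Nor did Psmf1, which was 23.0, 31.6 and 31.2 CPM in FPC-LIPA 31, 33 and 34 and 9.69 to 13.6 CPM in the other 3 livers (log2 fold change -0.67, SE 0.27, edgeR adjusted p = 0.0858).

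Ratios of 2 genes within a liver do not depend on the scaling between libraries, so each immune gene was also set against a counterpart. Tests of 5 such ratios in both comparisons gave 10 p-values, over which they were adjusted. The log2 ratio of Psme1 to Psme3 was 0.66 ± 0.31 in FPC-GFP and 1.99 ± 1.03 in FPC-LIPA. The difference of 1.33 (SE 0.44) had an exact permutation p of 0.00216, the smallest that 6 against 6 livers allow, and an adjusted p of 0.0108 (two-sided). Every FPC-LIPA liver, from 0.99 upward, was above the highest FPC-GFP liver at 0.89. For Psme2 to Psme3 the difference was 1.59 (SE 0.49, exact permutation p = 0.00433, adjusted p = 0.0144). With the diet this ratio changed the other way, from 0.53 ± 0.33 in CON-GFP livers to 0.00 ± 0.32 in FPC-GFP livers, a difference of -0.53 (SE 0.19, exact permutation p = 0.00216, adjusted p = 0.0108) with no overlap. The FPC-GFP livers enter both differences, so the opposite signs are not independent.

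The catalytic ratios gave no call. Psmb9 to Psmb6 differed by -0.74 (SE 0.30) in FPC-LIPA, with an exact permutation p of 0.0433 and an adjusted p of 0.108. Psmb8 to Psmb5 differed by -0.42 (SE 0.21) with the diet (exact permutation p = 0.0779, adjusted p = 0.156). For the other 4 catalytic ratios the differences were between -0.29 and 0.15, with adjusted p (exact permutation) of 0.512 or more. Without FPC-LIPA 36, 37 and 39, Psme1 to Psme3 differed by 0.40 (SE 0.14, adjusted exact permutation p = 0.195) and Psme2 to Psme3 by 0.57 (SE 0.24, adjusted exact permutation p = 0.179), so neither call held, and Psmb9 to Psmb6 differed by -0.20 (SE 0.20). The 3 livers left, at 0.99 to 1.16 for Psme1 to Psme3, still lay above the highest FPC-GFP liver at 0.89. With 3 against 6 livers the smallest p this test allows is larger, so the lost calls cannot tell smaller differences from fewer livers.

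**Figure D2:**
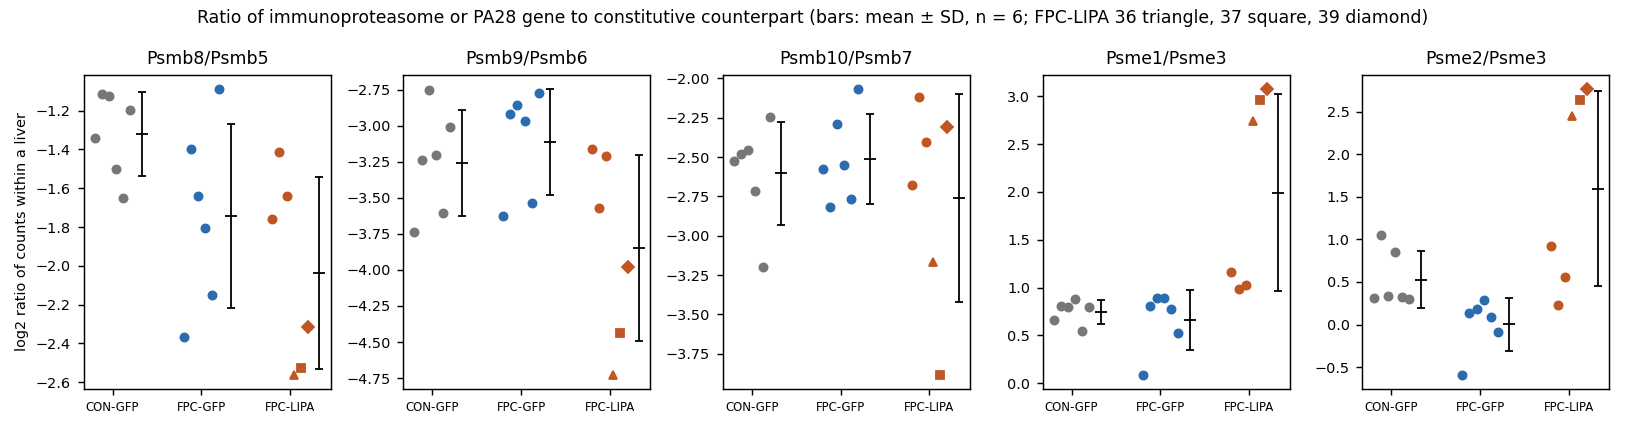
Log2 ratio of the counts of 2 genes within each liver (y axis, not from 0) by group (x axis); bars are mean ± SD of 6 livers, and FPC-LIPA 36, 37 and 39 have markers of their own. Every FPC-LIPA liver was above every FPC-GFP liver for Psme1/Psme3, and these 3 livers were the highest for both PA28 ratios.

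With the FPC diet some genes of the 19S cap rose, and by edgeR no gene of the 20S core passed. In FPC-GFP against CON-GFP, 7 of 47 members rose, against 12.9% of all genes tested, and 0 fell in edgeR's quasi-likelihood test, against 10.9% (2 lower at an unadjusted p under 0.05, 0 lower by DESeq2's Wald test). The members' share of 14.9%, over both directions, was below the 23.8% of all genes, so a response to the diet was not more common among the members at large. All 7 belonged to the cap or its assembly. Of the 17 genes of 19S subunits 6 rose, the median log2 fold change was 0.31 and 15 of 17 estimates were above 0. Of the 15 core genes other than the immune and thymus forms, the testis form Psma8 among them, 0 passed, with a median of 0.02. An unadjusted p under 0.05 (edgeR) was found for 2 of these 15, beside 5444 of all 14307 genes. DESeq2's Wald test called 0 of the 15. With each library's trend on length over all exons of a gene removed, 2 of the 15 core genes, Psma5 and Psmb5, rose. The median over all genes tested was 0.01. By edgeR no member was DE, against 4.76% of genes that were DE and higher.

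Psmc2 (ENSMUSG00000028932, chromosome 5, 21785283 to 21803787), an ATPase of the ring, had the largest change. Its level was 74.6, 59.01, 75.0, 56.8, 80.1 and 62.8 CPM in the CON-GFP livers and 116, 96.7, 97.4, 95.7, 100.1 and 87.4 CPM in the FPC-GFP livers. The lowest FPC-GFP liver was above the highest CON-GFP liver, and the log2 fold change was 0.53 (SE 0.11, edgeR adjusted p = 0.00443). Psmc5, another ATPase, was 51.4 to 72.6 CPM in CON-GFP and, in FPC-GFP, 72.8 to 101 CPM (0.44, SE 0.12, adjusted p = 0.0144). The other 4 ATPase genes did not pass, and Psmc6 was the only one of the 6 with an estimate below 0 (-0.14, SE 0.14).

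Of the 11 non-ATPase genes 4 rose. Psmd1, which encodes the large scaffold of the base, was 63.6 ± 13.5 CPM in CON-GFP and, in FPC-GFP, 92.2 ± 7.04 CPM (0.52, SE 0.13, edgeR adjusted p = 0.00932). CON-GFP 7 at 89.5 CPM lay within the FPC-GFP range of 83.6 to 102 CPM, and the other CON-GFP livers below it. The others were Psmd3, a lid subunit (0.45, SE 0.14), Psmd4, a ubiquitin receptor (0.44, SE 0.14), and Psmd7, partner of the deubiquitinase of the lid (0.36, SE 0.11). Psmd5, a chaperone of base assembly, also rose (0.40, SE 0.11, adjusted p = 0.0179). Psmd13 had the lowest estimate of the non-ATPases (-0.08, SE 0.09), and the chaperone Psmd9 the lowest of all members (-0.28, SE 0.12, edgeR adjusted p = 0.117). Groups did not overlap for 4 of the 47 members tested (Psmc2, Psmc5, Psmd3 and Psmd7, all higher), a share of 8.51% against 10.6% of all genes in either direction.

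The diet result depended on the scaling and on which livers estimated the spread. With library size in place of TMM, which moved the median of all genes by 0.20, 19 members rose. With all 18 libraries in one fit Psmc2 alone did, and without CON-GFP 6 or without FPC-GFP 11 only 4 members did, against 11 without CON-GFP 7.

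**Figure D3:**
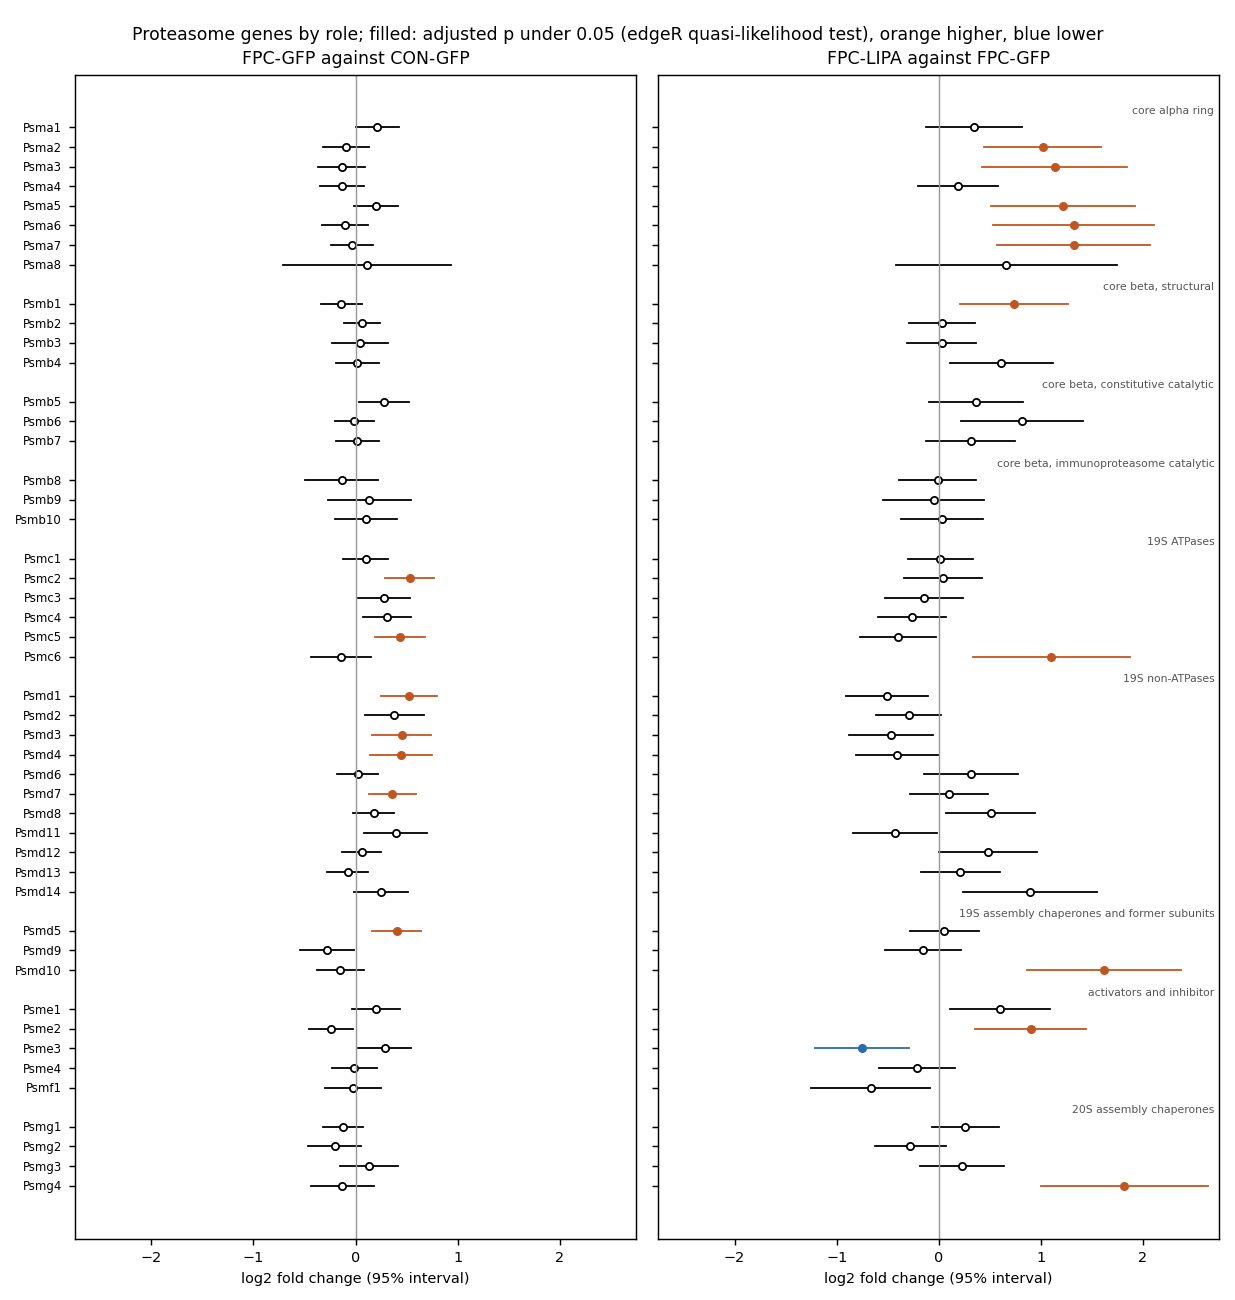
Log2 fold change (x axis, point with its 95% interval) of the 47 members tested (y axis, grouped by role) with the diet (left) and with LAL overexpression (right); filled points passed at an adjusted p under 0.05. The 7 filled points on the left all belong to the 19S cap and its assembly, and 6 of the 11 on the right to the 20S core.

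With LAL overexpression other members passed. In FPC-LIPA against FPC-GFP 10 members rose, against 14.4% of all genes tested, and 8 of these were DE, against 10.3% of genes that were DE and higher. The share of members that passed, 23.4%, was close to the 21.2% of all genes. Of the 8 alpha ring genes 5 rose and all 5 were DE, and the median estimate was 1.08 on the log2 scale. All 15 core genes other than the immune and thymus forms had estimates above 0 (median 0.66, 6 passed). The 17 genes of 19S subunits had a median of 0.02 and 1 passed. The 8 and the 15 include the testis form Psma8, at a mean of 1.34 CPM in FPC-LIPA. Its estimate (0.66, SE 0.51, edgeR adjusted p = 0.341) was itself the median of the 15. Without FPC-LIPA 36, 37 and 39 none of the 15 core genes passed or had an unadjusted p under 0.05 (edgeR), and their median was 0.02. The median of all members was 0.21 and that of all genes tested 0.04. Groups did not overlap for 3 members, Psmd10 and Psmg4 (higher) and Psme3 (lower), against 7.57% of all genes in either direction.

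Psma7, an alpha subunit, was 121 to 148 CPM in FPC-GFP. In FPC-LIPA it was 191, 123 and 138 CPM in livers 31, 33 and 34, and 482, 465 and 567 CPM in livers 36, 37 and 39. FPC-LIPA 33 and 34 lay within the FPC-GFP range, FPC-LIPA 31 above it and the other 3 far above it, and the log2 fold change was 1.32 (SE 0.35, edgeR adjusted p = 0.0235). Psma6 was 135, 102 and 124 CPM and then 393, 485 and 463 CPM in the same order of livers (1.32, SE 0.37, adjusted p = 0.0270), against 97.2 to 128 CPM in FPC-GFP. The other alpha genes to rise were Psma5, Psma3 and Psma2. Psma5 was 55.4 to 66.3 CPM in FPC-GFP. In FPC-LIPA it was 59.97 to 74.2 CPM in livers 31, 33 and 34 and 201 to 225 CPM in livers 36, 37 and 39 (1.22, SE 0.33, edgeR adjusted p = 0.0250). Psma3 (93.4 to 117 CPM in FPC-GFP) was 91.6 to 125 CPM and 339 to 374 CPM in these sets of livers (1.14, SE 0.33, edgeR adjusted p = 0.0310). Psma2 (85.8 to 105 CPM in FPC-GFP) was 99.4 to 150.04 CPM and 259 to 281 CPM (1.02, SE 0.27, edgeR adjusted p = 0.0224). The 3 genes thus stood apart in the same 3 livers. Psma1 and Psma4 did not pass (0.34, SE 0.22, and 0.19, SE 0.19). The pseudogene Psma5-ps held 5.97% to 8.56% of the counts of its pair with Psma5.

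Among structural beta subunits Psmb1 rose from 152 ± 15.2 CPM to 253 ± 103 CPM (0.74, SE 0.25, edgeR adjusted p = 0.0466), while Psmb2 and Psmb3 had estimates of 0.03 each (SE 0.15 and 0.16). The largest changes were in assembly factors. Psmg4 (ENSMUSG00000071451, chromosome 13, 34162964 to 34178173), a chaperone of alpha ring assembly, was 5.69 to 8.64 CPM in FPC-GFP and 11.1, 9.70, 10.5, 28.5, 37.1 and 48.3 CPM in FPC-LIPA 31, 33, 34, 36, 37 and 39. Every FPC-LIPA liver was above the FPC-GFP range, and the log2 fold change was 1.82 (SE 0.38, edgeR adjusted p = 0.0138). The other 3 Psmg genes did not pass, with estimates from -0.28 (Psmg2) to 0.26.

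Psmd10 (ENSMUSG00000031429, chromosome X, 140948429 to 140956728), which encodes the base chaperone gankyrin, was 9.13 to 12.2 CPM in FPC-GFP and 18.6, 12.4, 13.5, 42.0, 57.7 and 49.7 CPM in the same order of FPC-LIPA livers. It rose by 1.62 (SE 0.35, edgeR adjusted p = 0.0144). Psmg4 and Psmd10 passed with any 1 of the 12 livers left out, and no other member did. In the cap itself, Psmc6 alone rose by edgeR's quasi-likelihood test (1.10, SE 0.36, adjusted p = 0.0439). It was 95.9, 49.4 and 71.2 CPM in FPC-LIPA 31, 33 and 34 and 199, 331 and 146 CPM in FPC-LIPA 36, 37 and 39. The FPC-GFP range was 60.8 to 75.6 CPM. Without FPC-LIPA 36, 37 and 39 the estimate of Psmc6 was 0.06 (SE 0.18). DESeq2's Wald test called Psmd8 and Psmd14 higher as well and Psmd1 lower. With upper-quartile factors edgeR's quasi-likelihood test also called Psmd14 higher. Psmd14, the deubiquitinase of the lid, had an estimate of 0.90 (SE 0.31, adjusted p = 0.0509), and Psmd1 had the lowest of the cap (-0.51, SE 0.19, adjusted p = 0.0626). Psmc5 was lower as well by its estimate (-0.40, SE 0.18, adjusted p = 0.105).

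Several core genes were high in 3 of the 6 FPC-LIPA livers. The summed level of Psma1 to Psma7 was 656 to 867 CPM in CON-GFP. In the FPC-GFP livers it was 681 to 797 CPM. It was 915, 659 and 756 CPM in FPC-LIPA 31, 33 and 34, but 2137, 2087 and 2197 CPM in FPC-LIPA 36, 37 and 39. In these last 3 livers 13, 15 and 13 of 46 members stood at least 1 log2 unit above the FPC-GFP mean, and 2, 6 and 2 at least 1 unit below it. In the other 15 livers none was that far above. The same 3 livers had the highest share of ribosomal protein counts, and the part of that in the result was not tested. Without them 0 of 47 members passed in edgeR's quasi-likelihood test, and the members' median was -0.11. By that test 2 members were higher and 5 lower at an unadjusted p under 0.05, beside 2817 of 15246 genes in either direction. Psmg4 and Psmd10 then had estimates of 0.61 (SE 0.17) and 0.50 (SE 0.16), and Psme3 of -0.37 (SE 0.15). With FPC-LIPA 36 or FPC-LIPA 39 alone left out 2 members passed, with FPC-LIPA 37 left out 3, and with FPC-LIPA 33 left out 19.

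**Figure D4:**
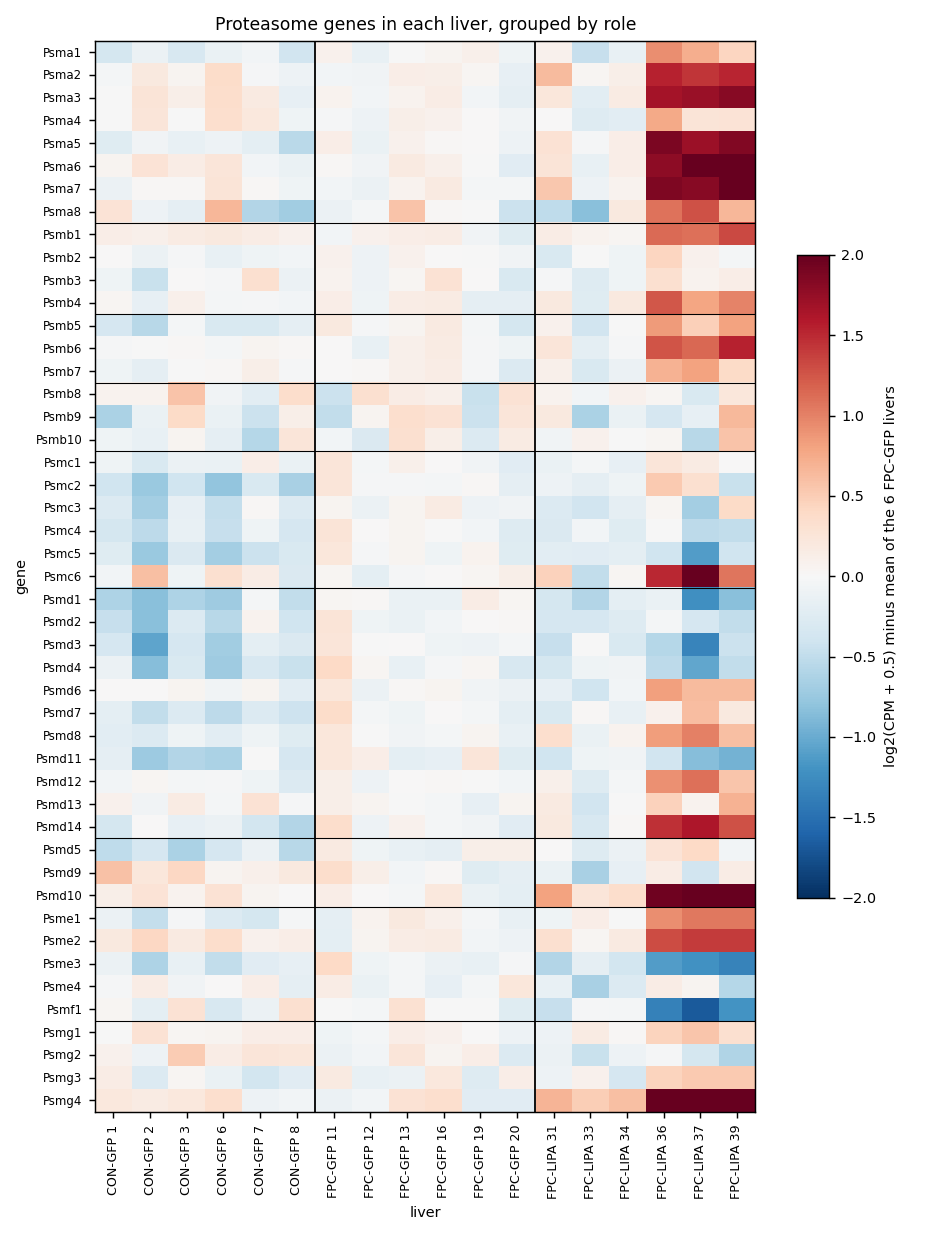
Level of 46 members and Psma8 (rows, grouped by role) in each of the 18 livers (columns) as log2(CPM + 0.5) minus the mean of the 6 FPC-GFP livers. FPC-LIPA 36, 37 and 39 stood out with 13 to 15 members at least 1 unit above that mean, among them Psma2, Psma3, Psma5, Psma6 and Psma7, while Psme3 and Psmf1 were at least 1 unit below it in all 3.

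**Figure D5:**
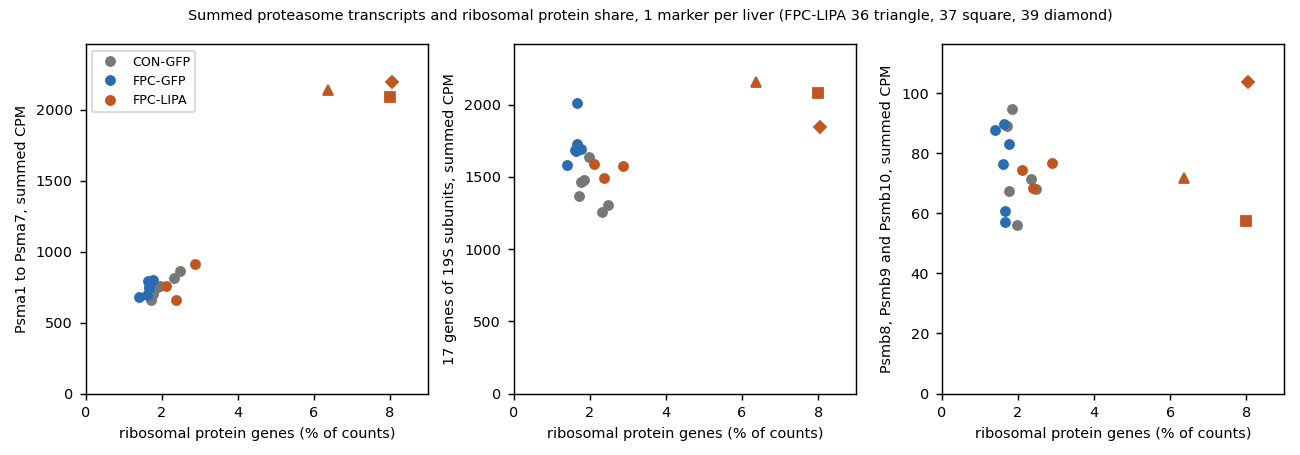
Summed CPM of Psma1 to Psma7, of the 17 genes of 19S subunits and of Psmb8, Psmb9 and Psmb10 (y axes, from 0) against the share of counts on ribosomal protein genes (x axis), 1 marker per liver. The alpha ring sum was 2087 to 2197 CPM in the 3 livers with shares of 6.36% to 8.05%, whereas the immune catalytic sum overlapped with the other groups (57.6 to 104 CPM).

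Members with shorter transcripts tended to higher estimates in this comparison. Across the 47 members, Spearman's rho between the log2 fold change and transcript length was -0.38 (Pearson's r on log2 length -0.40), and across 12850 genes it was -0.26. Members share libraries, so these are descriptions. The trend removed next was on another length, that over all exons of a gene. With each library's trend on length removed, 7 members rose (Psma2, Psma3, Psma7, Psmb1, Psmc6, Psmd10 and Psmg4) and 2 fell (Psmc5 and Psme3). For the diet, rho was 0.20 across the members, and with the trend removed 9 rose (Psma5, Psmb5, Psmc2, Psmc4, Psmc5, Psmd1, Psmd4, Psmd5 and Psmd7).

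Genes that work with the proteasome were followed as well. Of 23 such genes 6 rose with the diet and 1, Sem1, which encodes a small lid subunit, fell (-0.35, SE 0.12), a share of 30.4% against 23.8% of all genes. Those that rose included Ubqln2 and Ubqln4, ubiquitin shuttles (0.84, SE 0.13, and 0.62, SE 0.15), Adrm1, a ubiquitin receptor of the cap (0.73, SE 0.17), and Vcp, the segregase that extracts ubiquitinated proteins (0.55, SE 0.13, edgeR adjusted p = 0.00891). Vcp was 162 to 286 CPM in CON-GFP and, in FPC-GFP, 301 to 388 CPM. With LAL overexpression 4 of the 23 passed, all of them lower, a share of 17.4% against 21.2% of all genes. In either direction 13 of the 23 had an unadjusted p under 0.05 (edgeR), beside 5825 of all 14620 genes tested. Those that passed were Vcp (-0.65, SE 0.17), the ubiquitin-activating enzyme Uba1 (-0.81, SE 0.25), the transcription factor of proteasome genes Nfe2l1 (-0.97, SE 0.27, adjusted p = 0.0262) and the protease that activates it, Ddi2 (-0.78, SE 0.25). Nfe2l1 was 163 ± 10.8 CPM in FPC-GFP and 83.0 ± 38.7 CPM in FPC-LIPA. Groups did not overlap for 4 of the 23 with the diet, all higher, against 10.6% of all genes in either direction. With LAL overexpression they did not overlap for 2 of the 23, both lower and Nfe2l1 among them, against 7.57%. Without FPC-LIPA 36, 37 and 39 none of the 23 passed (edgeR), and the estimates were -0.48 (SE 0.13) for Vcp and -0.47 (SE 0.13) for Nfe2l1.

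Genes that act before and after the immunoproteasome did not all move in 1 direction. Of 12 genes of MHC class I presentation, Tapbp (0.46, SE 0.13) and Tap1 (0.45, SE 0.14) rose with the diet and Erap1, a peptide trimming enzyme, fell (-0.46, SE 0.13). That is 25.0% of them, against 23.8% of all genes. With LAL overexpression 1 of the 12 passed by edgeR (8.33%, against 21.2% of all genes), H2-K1, which fell (-0.73, SE 0.25, adjusted p = 0.0470). Most estimates pointed down, since 9 of the 12 were below 0, with a median of -0.33 against 0.04 over all genes. An unadjusted p under 0.05 was found for 5 of the 12 (edgeR), beside 5825 of all 14620 genes tested. Without FPC-LIPA 36, 37 and 39 H2-K1 did not pass (-0.32, SE 0.17), and the 12 estimates lay between -0.36 and -0.02, with a median of -0.17. B2m, the gene of the light chain, was 1533 ± 163 CPM in FPC-GFP and 1238 ± 357 CPM in FPC-LIPA and did not pass. Psmb9 shares 212 bases of exon with Tap1 on the other strand, and since the strand setting of the counting is not stated, their reads cannot be fully told apart. The same holds for Psmb7 and Nek6 (253 bases) and for Psmd13 and Sirt3 (329 bases). Psmb8 overlaps the antisense gene Gm20496 (259 bases), which had 0 counts. Psmd9 overlaps a lincRNA gene over 1849 bases, for which no counts were found. Whether reads were lost in these overlaps cannot be told.

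Of 13 tested genes of the interferon gamma pathway 4 rose with the diet, among them Irf1, a transcription factor induced by interferon gamma (18.9 ± 2.23 CPM to 32.4 ± 3.37 CPM, log2 fold change 0.76, SE 0.11, edgeR adjusted p = 0.000352), Irf8, another factor of that family (0.79, SE 0.18), and the receptor gene Ifngr1 (0.59, SE 0.12). That is 30.8%, against 12.9% of all genes that rose with the diet and 23.8% that passed in either direction. With LAL overexpression Gbp2, a guanylate-binding protein gene (0.99, SE 0.19), and Cxcl9, a chemokine gene (1.26, SE 0.34), rose of 14 tested, and Irf1 did not pass (-0.13, SE 0.15). This share of 14.3% stood beside 14.4% of all genes that rose, and without FPC-LIPA 36, 37 and 39 Gbp2 passed (0.86, SE 0.18, edgeR adjusted p = 0.0440) and Cxcl9 did not (0.59, SE 0.27). Ifng itself was at 0 in every CON-GFP and FPC-LIPA liver and at 0 to 0.0904 CPM in FPC-GFP. Beside these, 8 of 17 tested leukocyte markers rose and 1, Cd4, fell with the diet. That is 52.9%, against 23.8% of all genes that passed in either direction. With LAL overexpression 11 of 19 rose, 57.9% against 14.4% of all genes that rose. Without FPC-LIPA 36, 37 and 39, 5 of 20 rose, beside 169 of 15246 genes. Of 10 hepatocyte markers 4 fell with the diet, 40% against 10.9% of all genes that fell. With LAL overexpression 1, Hnf4a, fell (-0.98, SE 0.32), 10% against 6.87%. Hnf4a did not pass without FPC-LIPA 36, 37 and 39 (-0.46, SE 0.19). The part of the cell makeup in the results was not tested.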

How the data were processed

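Liver RNA of 18 mice was sequenced as paired reads. The deposited values are raw counts per gene with no normalization, which the authors made with Feature Counts after trimming (Trimmomatic) and mapping to GRCm38 (Hisat2, version 2.1.0). Both a stranded and an unstranded kit are named. The kit of each library, the strand setting, the annotation release and the handling of reads that match several places are not given in the sources used here. Columns were matched to samples by diet, vector and mouse number, and 5 other columns were not used. Total counts were 16632146 to 37739301.

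Each comparison was fitted on its 12 libraries. Genes were kept by filterByExpr, scaled by TMM and tested with the quasi-likelihood test of edgeR 4.0.16 (R 4.3.3), with Benjamini-Hochberg adjustment over all genes. The scripts were tested on simulated data. Log2 ratios used counts + 0.5 and two-sided exact permutation tests, adjusted over 10 tests. Lengths of principal transcripts, lengths over all exons of a gene and positions came from GENCODE M21 (GRCm38). Promoters came from RefSeq (GRCm38.p6). The length trend was removed on the length over all exons. The p-values measure the spread between these mice.

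The members, gene lists and tests were chosen with earlier results of these data known. By rule, values were given for the 5 immune and PA28 alpha and beta genes, Psmb5, Psmb6, Psmb7, Psme3 and Psme4, for DE members and for the highest and lowest estimate of each role. Of each further list, the 2 genes with the highest level and the 3 with the smallest p were eligible. Psmf1, Sem1, Uba1 and Cd4 were named after their values were seen. Alternatives were other scalings (library size, upper quartile, DESeq2 size factors), filters, the tests of DESeq2 1.42.0 and edgeR's exact test, all 18 libraries in one fit, sample sheet numbers from 55 to 68 alone, removal of each library's length trend, each library left out and, added after seeing the data, FPC-LIPA 36, 37 and 39 left out. One further promoter element is not reported here.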

Additional observations from a re-analysis of the deposited data

Results flagged for a closer look

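The highest and lowest livers were compared with the other 5 of their group in 111 sets (32 named members and the 5 ratios in 3 groups) by Dixon's criterion. It marked 2 values, where chance gives about 1 in 20 sets. Psmc5, an ATPase gene of the cap, was at 39.3 CPM in FPC-LIPA 37, while the other FPC-LIPA livers were between 65.3 and 74.9 CPM. Psme3, the PA28 gamma gene, was at 74.3 CPM in FPC-GFP 11, while the other FPC-GFP livers were between 50.9 and 55.6 CPM.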

How the results depend on the processing

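With the diet, 7 members passed, all higher. The count was 19 with library size alone, 1 with all 18 libraries in one fit, 4 within sample sheet numbers 55 to 68 and 0 with a fold of at least 2. With each library left out it was 4 to 11 higher and 0 to 1 lower. With LAL overexpression 11 passed, 10 higher and 1 lower. The count was 17 with DESeq2's Wald test (2 lower), 18 with all 18 libraries in one fit (3 lower), 0 within sample sheet numbers 55 to 68 (without FPC-LIPA 37, FPC-GFP 20 and CON-GFP 1 and 2, and with 11 members higher and 5 lower at an unadjusted p under 0.05 and an alpha ring median of 0.90) and 0 without FPC-LIPA 36, 37 and 39, where the members' median was -0.11. Fewer samples enter the last 2, and other causes were not tested. Over all genes, 4414 of 14736 had an unadjusted p under 0.05 (edgeR) within sample sheet numbers 55 to 68. With library size alone 0 were lower, and with the length trend removed 2. With each library left out 2 to 19 passed, 2 to 16 higher and 0 to 3 lower. Without FPC-GFP 11, 12, 13, 19 and 20 in turn the counts were 4, 2, 5, 7 and 2. Within sample sheet numbers 55 to 68 the difference in log2 ratio was -0.43 for Psme2/Psme3 with the diet, and 1.11 for Psme1/Psme3 and 1.37 for Psme2/Psme3 with LAL overexpression, each with an adjusted exact permutation p of 0.0529. Without FPC-LIPA 36, 37 and 39 the last 2 were 0.40 and 0.57. With each library left out, the differences ranged from -0.58 to -0.41 for Psme2/Psme3 with the diet. With LAL overexpression they ranged from 1.11 to 1.53 for Psme1/Psme3, from 1.36 to 1.87 for Psme2/Psme3 and from -0.87 to -0.56 for Psmb9/Psmb6. The Psme2/Psme3 call with the diet was lost without FPC-GFP 11 (adjusted exact permutation p = 0.0920), both LIPA calls with any 1 FPC-GFP liver left out (0.0649 to 0.0920), and Psmb9/Psmb6 passed without FPC-LIPA 31 (0.0487). No paired analysis was possible because the groups share no mouse numbers.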
